A study of Mus musculus with 80 samples.

Results

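The cell cycle drivers and inhibitors described here were 40 genes chosen by symbol from a list of known cell cycle genes. All 40 were found among the 25899 genes of the expression table, and their levels were read in the 30 RNA-seq libraries that passed the quality criteria of the study. They comprised 12 mitotic genes (4 for the mitotic cyclins and their kinase, 8 for the mitotic apparatus and proliferation markers), 6 replication licensing genes, 3 genes for the replication clamp and nucleotide supply, 5 G1 and S cyclins, 3 G1 and S kinases, 3 CIP/KIP inhibitors, 4 INK4 inhibitors and 4 genes of the E2F and pocket protein family. The questions were whether muscle stem cells (MuSCs) carried transcripts of proliferating cells before or after transplantation, and which inhibitors they carried.

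MuSCs of the extraocular muscles (EOM, which move the eye) and of the tibialis anterior (TA, a muscle of the lower hindlimb) were sorted by GFP from Tg:Pax7-nGFP mice aged 7.0 to 7.6 weeks, in which a Pax7 transgene drives a nuclear GFP. Cells were sequenced directly (pre-graft, 8 EOM and 8 TA libraries of 500 cells each) or sorted again by GFP at day 21 after transplantation (post-graft, 7 EOM and 7 TA libraries). The day is that of the sample titles, while the study's results give a later day and its methods a span of weeks. Every graft, from EOM or TA, was placed in the injured TA of an immunodeficient Rag2-/-;γC-/- recipient, with both muscles of a donor placed in opposite limbs of the same recipient. RNA and DNA of the same cells were separated, and RNA-seq reads were given as log2 RPM, read counts scaled to the depth of each library.

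All 4 groups therefore carried the Pax7-nGFP transgene, and the sort gate was the GFP signal itself, before and after grafting. The post-graft libraries held a median of 35 EOM cells (from 9 up) or 26 TA cells (16 to 67) by their titles, which differ from the study's own count for some libraries. The donors were 10 mice of 2 experiments, and Experiment 1 gave 1 passing EOM graft and 1 passing TA graft. Whole reads were recovered from the deposited values, and came to between 963432 and 4169357 a library. The share of these reads from mitochondrially encoded genes had a median of 3.77% (2.96 to 9.18%) in EOM pre-graft, 13.6% (3.47 to 28.8%) in TA pre-graft, 43.7% (5.59 to 67.6%) in EOM post-graft and 38.3% (8.73 to 81.1%) in TA post-graft libraries. Pax7, which defines these cells, had reads in every library, at 283 to 596 RPM in EOM pre-graft, 571 to 1461 in TA pre-graft, 10.4 to 518 in EOM post-graft and 9.02 to 553 in TA post-graft libraries.

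Cells enter the cycle when D-type cyclins activate Cdk4 and Cdk6, which phosphorylate Rb1 and its relatives and release E2F factors. E2F then switches on the E cyclins, the Mcm2-7 helicase that licenses replication origins and the enzymes of nucleotide supply, and the A and B cyclins with Cdk1 carry the cell through mitosis. INK4 proteins block Cdk4 and Cdk6, CIP/KIP proteins bind cyclin-kinase complexes more broadly, and adult MuSCs are largely quiescent in uninjured muscle.

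Promoter sequences are shown for 3 genes that carry the results below, with E2F letters written as TTTCCCGC, TTTGGCGC, TTTCGCGC or TTTGCCGC and CHR letters, the cell cycle homology region of mitotic genes, as TTTGAA or TTCGAA, all read on both strands. Capitals mark the E2F and CHR matches in the 250 bases before the RefSeq start, written 5′ to 3′ on the gene's strand in build GRCm38.p6. Mcm5 and Mcm6 encode licensing helicase subunits that were called lower in the comparisons below, and Cdk1 encodes the mitotic kinase.
Mcm5, chr8:75109259-75109508, plus strand: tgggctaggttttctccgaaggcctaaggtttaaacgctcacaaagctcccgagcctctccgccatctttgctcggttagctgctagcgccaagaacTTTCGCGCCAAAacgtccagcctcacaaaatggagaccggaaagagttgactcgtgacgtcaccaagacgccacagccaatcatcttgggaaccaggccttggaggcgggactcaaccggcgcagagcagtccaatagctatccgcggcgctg
Mcm6, chr1:128359706-128359955, minus strand: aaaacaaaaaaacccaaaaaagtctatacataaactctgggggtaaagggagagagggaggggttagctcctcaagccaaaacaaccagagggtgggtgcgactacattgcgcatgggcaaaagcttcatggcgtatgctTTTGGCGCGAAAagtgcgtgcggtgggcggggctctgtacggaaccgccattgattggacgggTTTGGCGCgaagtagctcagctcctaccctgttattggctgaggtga
Cdk1, chr10:69352913-69353162, minus strand: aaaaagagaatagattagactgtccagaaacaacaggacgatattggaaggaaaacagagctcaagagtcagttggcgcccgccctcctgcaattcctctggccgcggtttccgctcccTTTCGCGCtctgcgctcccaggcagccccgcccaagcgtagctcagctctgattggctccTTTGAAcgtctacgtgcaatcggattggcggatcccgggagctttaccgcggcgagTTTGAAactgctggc

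In Mcm5 and in Mcm6 an E2F match on the plus strand overlapped another on the minus strand, and Mcm6 held a further match nearer the start. Cdk1 held 1 E2F match and 2 CHR matches. Of the 40 genes, 32 had a promoter in the RefSeq table, with 37 promoters in all, and 7 of the 32 genes held an E2F match (Cdk1, Cdk2, Cdkn2a, Mcm5, Mcm6, Mcm7 and Rbl1). Over all 32851 promoter windows of the same length the share with an E2F match was 1.86%. CHR letters were present in 9 of the 32 genes and in 17.15% of all windows, and the letters CCAAT, on either strand, in 20 of the 32 genes and in 33.85% of all windows. These matches describe the letters only.

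Across the 30 libraries 22 to 38 of the 40 genes had at least 1 read (median 31), and 11 genes had a read in every library: Pcna, Ccnd1, Ccnd3, Cdk2, Cdk4, Cdkn1a, Cdkn1b, Cdkn1c, Cdkn2d, Rb1 and Rbl2. With a read in every library of a group were 25 genes in EOM pre-graft, 21 in TA pre-graft, 13 in EOM post-graft and 17 in TA post-graft. Most of the genes found in every library act at or before the G1 to S transition, and 6 of the 11 encode inhibitors or pocket proteins (Cdkn1a, Cdkn1b, Cdkn1c, Cdkn2d, Rb1 and Rbl2).

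**Figure D1:**
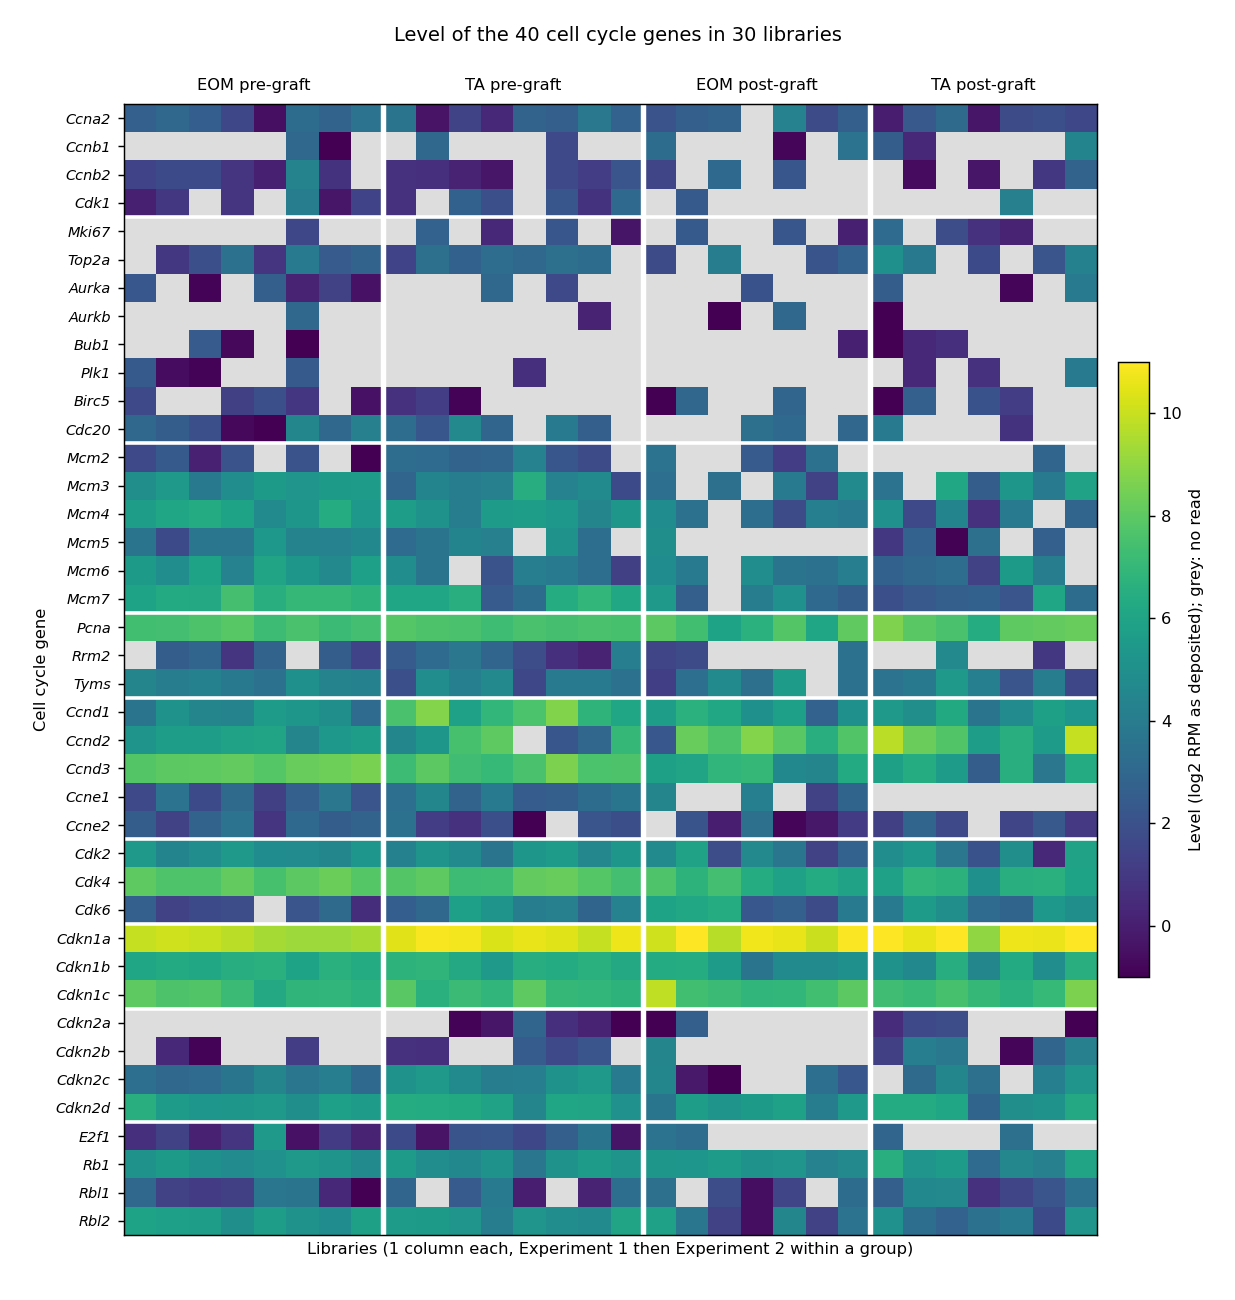
Level of each of the 40 genes (vertical axis, by role) in each of the 30 libraries (horizontal axis, 1 column a library), coloured by log2 RPM, with grey for no read. The mitotic genes at the top are mostly grey or dark in all 4 groups, and Cdkn1a is the brightest line, between 9.01 and 12.01 log2 RPM.

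Transcripts of the 12 mitotic genes were scarce in all 4 groups. Their summed level was 13.99 to 112.1 RPM (median 24.6) in EOM pre-graft, 16.6 to 51.1 RPM (median 33.5) in TA pre-graft, 7.70 to 54.1 RPM (median 24.5) in EOM post-graft and 10.2 to 82.4 RPM (median 27.9) in TA post-graft libraries. In reads this was 9 to 297 for 12 genes together in a library, and the 4 ranges overlapped.

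Mki67 (chr7:135689788-135716379), whose protein coats chromosomes in cycling cells and is the usual marker of proliferation, had no read in 7 of 8 EOM pre-graft, 4 of 8 TA pre-graft, 4 of 7 EOM post-graft and 3 of 7 TA post-graft libraries. Its highest count was 8 reads in EOM pre-graft, 9 in TA pre-graft, 8 in EOM post-graft and 19 in TA post-graft libraries. A count of 0 allows up to 3 reads, which was 1.05 to 1.95 RPM in EOM pre-graft, 1.22 to 4.64 in TA pre-graft, 1.41 to 2.63 in EOM post-graft and 1.43 to 2.46 in TA post-graft libraries, for counting error only. Its highest levels were 3.02, 6.91, 5.26 and 9.09 RPM in the same order, above these limits, and it was thus scarce but not absent.

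Bub1, a kinase of the spindle checkpoint, had no read in any TA pre-graft library and at most 10, 2 and 3 reads in EOM pre-graft, EOM post-graft and TA post-graft libraries. Plk1, a kinase of mitotic entry, had none in any EOM post-graft library and up to 14, 3 and 32 reads in EOM pre-graft, TA pre-graft and TA post-graft. Aurkb, the kinase of the chromosomal passenger complex, had a read in 5 of 30 libraries. Each of these genes was at 0 in most libraries of each group, apart from Plk1 in EOM pre-graft, where 4 of 8 were at 0.

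Cdk1 (chr10:69336635-69352938), the mitotic kinase whose promoter is shown above, had reads in 6 of 8 libraries of either pre-graft group, at up to 43 reads in EOM and 21 in TA. After grafting it had reads in 1 of 7 EOM libraries (6 reads) and 1 of 7 TA libraries (33 reads). Ccnb1 and Ccnb2, the B cyclins that partner Cdk1, had reads in 10 and 21 of the 30 libraries, with at most 42 and 55 reads.

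Ccna2, the cyclin of S phase and early mitosis, was the most widely detected mitotic gene, in 29 of 30 libraries, at medians of 12.5, 9.5, 9 and 6 reads in EOM pre-graft, TA pre-graft, EOM post-graft and TA post-graft. Top2a, the topoisomerase that untangles replicated chromosomes, had reads in 23 libraries with at most 69. Cdc20, an activator of the anaphase-promoting complex, had reads in 19, with medians of 12.5 and 10.5 in EOM and TA pre-graft and 0 in both post-graft groups. Birc5 (survivin) had reads in 15 libraries and at most 13, and Aurka, a spindle pole kinase, in 12 and at most 31.

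Among the EOM pre-graft libraries that of Experiment 2 mouse 4 stood apart, with reads on all 12 mitotic genes, 297 in all. The other 7 EOM pre-graft libraries had 13.99 to 42.08 RPM over the same genes, against 112.1 RPM in it. In TA grafts the sum was 70.8 RPM (148 reads) in Experiment 1 mouse 3 and 82.4 RPM (163 reads) in Experiment 2 mouse 6. They had 6651 and 7091 RPM summed over 9 endothelial marker genes. The other TA grafts had 10.2 to 30.3 RPM of the mitotic genes and 1335 to 5629 RPM of the endothelial genes. The part of endothelial RNA in the mitotic reads was not tested. No mitotic gene was called in any comparison below by limma with all passing libraries, edgeR or DESeq2, where a call needs a Benjamini-Hochberg adjusted p under 0.05 and a log2 change beyond 1 in size, and only 7 of the 12 were high enough to be tested between the muscles before or after grafting, 9 for TA grafting and 6 for EOM grafting. At an unadjusted p under 0.05 was only Cdc20 in TA grafts, with a change of -2.08 (adjusted p = 0.0925). It was called when the libraries that failed the quality criteria were added (-2.45, adjusted p = 0.0195) and without the TA graft of Experiment 1 mouse 3 (-2.72, adjusted p = 0.0290) or the TA pre-graft library of Experiment 2 mouse 3 or 6 (-2.54 and -2.59, adjusted p = 0.0422 and 0.0414). The added TA pre-graft library of Experiment 1 mouse 5 held 56368 recovered reads, and a gene with no read stood at 4.40 log2 RPM. Cdk1 was called lower in TA grafts without the graft of Experiment 2 mouse 4 (-2.13, adjusted p = 0.0305), which held all of its post-graft TA reads.

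Several inhibitors were among the best detected genes. Cdkn1a (p21, chr17:29090979-29100722), a CIP/KIP inhibitor that p53 induces, had the highest level per exon length of the 40 genes in each of the 4 groups, with a median of 218 RPM per kb in EOM pre-graft, 413 in TA pre-graft, 438 in EOM post-graft and 471 in TA post-graft libraries. Cdkn1c (p57, chr7:143458350-143461050), an imprinted CIP/KIP inhibitor, had medians of 64.9, 61.5, 79.7 and 68.1 RPM per kb in the same order. Cdkn1b (p27, chr6:134920401-134925513), the third CIP/KIP inhibitor, had 18.0, 19.0, 7.25 and 7.77 RPM per kb. Cdkn1c was thus near the same level in all 4 groups, and Cdkn1b was lower in both post-graft groups on this scale.

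The INK4 inhibitors, which bind Cdk4 and Cdk6 directly, differed widely among themselves. Cdkn2d (p19, chr9:21288463-21291209) had a read in every library, with medians of 29.3, 41.4, 28.3 and 41.8 RPM per kb in EOM pre-graft, TA pre-graft, EOM post-graft and TA post-graft. Cdkn2c (p18, chr4:109660876-109667189) had medians of 4.29, 11.54, 0.326 and 3.97 RPM per kb, and was at 0 in 2 libraries of each post-graft group. Cdkn2a and Cdkn2b (p15) are 2 neighbouring genes of chromosome 4 that mark senescent cells. Cdkn2a (chr4:89274473-89294653), which encodes both p16 and p19Arf, was scarce, with 46 reads in 12 of the 30 libraries and none in EOM pre-graft. Cdkn2b had 192 reads in 15 libraries, 110 of them in 6 of the 7 TA grafts. Its medians were 0, 1.14, 0 and 5.50 RPM per kb in EOM pre-graft, TA pre-graft, EOM post-graft and TA post-graft.

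The pocket proteins Rb1 (chr14:73183673-73325822) and Rbl2 (p130), which hold E2F in check, had a read in every library. Rb1 had medians of 5.71, 5.86, 6.31 and 6.41 RPM per kb in EOM pre-graft, TA pre-graft, EOM post-graft and TA post-graft, and Rbl2 6.89, 5.10, 1.60 and 1.52. Their relative Rbl1 (p107), an E2F target that rises in cycling cells, and E2f1 itself were low, with medians of at most 1.04 and 1.21 RPM per kb in any group. The 4 groups of Rb1 levels overlapped throughout.

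**Figure D2:**
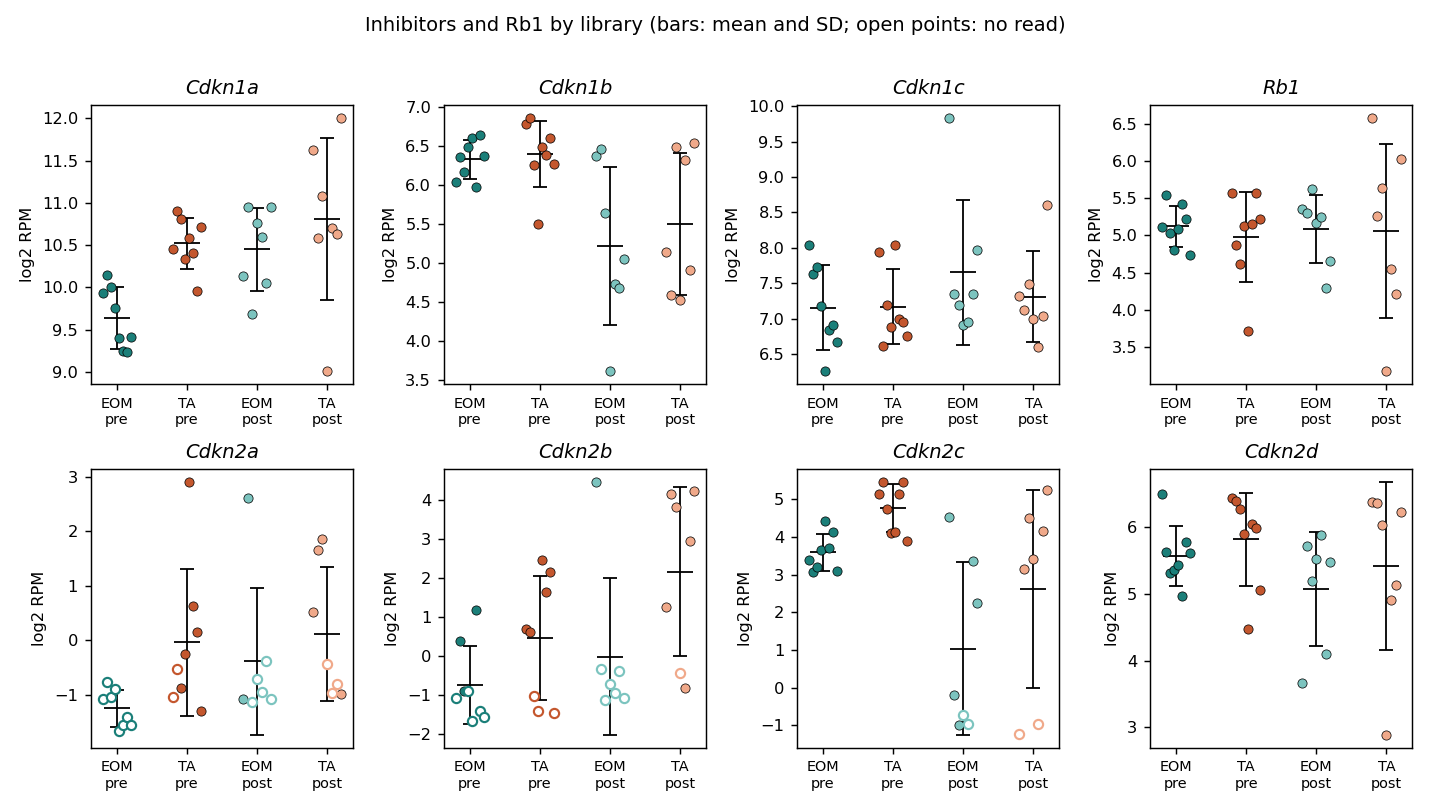
Levels of the 7 inhibitors and of Rb1 in log2 RPM (vertical axes, each with its own range) for the 4 groups (horizontal axes), with 1 point a library, bars for the mean and SD, and open points for libraries with no read, placed at that library's lowest value. Cdkn1a is at or above 9.01 in every library, while Cdkn2a has no read in any EOM pre-graft library and no read in 10 of the other 22.

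Among the drivers, Cdk4 (chr10:127063534-127067920) and Pcna (chr2:132249162-132253314), the sliding clamp that also serves DNA repair, were the highest per exon length. Cdk4 had medians of 73.4, 68.85, 26.5 and 28.4 RPM per kb and Pcna 71.4, 78.2, 68.6 and 108 in EOM pre-graft, TA pre-graft, EOM post-graft and TA post-graft. Pcna had 81 or more reads in every library, whereas Rrm2, the ribonucleotide reductase subunit of S phase, had a read in 19 libraries and Tyms, thymidylate synthase, in 29. A high Pcna level was thus not matched by Rrm2 in these libraries.

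TA and EOM MuSCs differed before grafting at 4 of the 34 genes that could be tested. Ccnd1, Cdk6 and Cdkn2c were higher in TA MuSCs and Mcm6 was lower. Over all 13217 genes tested with limma 1.26% were called higher and 3.31% lower, 4.56% in all, against 3 and 1 of 34 here. The median log2 difference was -0.08 for the 34 genes and -0.30 over all genes, and after each library was centred on the median of its genes 4 were higher (Cdkn1a was added) and 1 lower, beside 1.77% and 2.08% of all genes.

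Ccnd1 (cyclin D1, chr7:144929931-144939869), the D-type cyclin that mitogens induce, was 3.17 to 5.63 log2 RPM (median 4.73) in EOM pre-graft and 5.85 to 8.79 (median 7.23) in TA pre-graft libraries. Every TA library was above every EOM library, as for 2.28% of all genes tested. The difference was 2.72 on the log2 scale (SE 0.42, adjusted p = 0.000165), which is 6.57-fold, and it was called under every other setting tried, with 2.31 (adjusted p = 0.0151) in Experiment 2 alone. Among the 8 TA libraries Ccnd1 was 113 to 443 RPM in the 5 with the least endothelial signal and 57.5 to 122 RPM in the 3 others, which are described below.

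Cdk6 (chr5:3343893-3523218), a partner of the D-type cyclins, was -1.67 to 3.14 log2 RPM (median 1.77) in EOM and 2.57 to 5.79 (median 4.14) in TA pre-graft libraries, with 1 EOM library at 0 reads. The ranges met at their ends. The difference was 2.54 (SE 0.66, adjusted p = 0.0192), or 5.80-fold, and 2.56 with the donor mouse as a block (adjusted p = 0.0525). Cdk6 kept its call in 8 of 11 other settings, over which the difference was 1.47 to 3.19 and the adjusted p at most 0.429. Cdkn2c, the INK4 inhibitor p18, was 3.08 to 4.44 (median 3.52) in EOM and 3.91 to 5.48 (median 4.94) in TA, a difference of 1.17 (SE 0.36, adjusted p = 0.0442). It lost its call within Experiment 2 (0.77, adjusted p = 0.355), with the donor block (1.21, adjusted p = 0.0578), and on leaving out any of 12 of the 16 libraries. Cdkn2c kept its call in 6 of 11 other settings, over which the difference was 0.77 to 1.48 and the adjusted p at most 0.528.

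Mcm6 (chr1:128331591-128359656), the helicase subunit shown above, was 4.30 to 6.02 log2 RPM (median 5.45) in EOM and -1.02 to 4.87 (median 3.47) in TA pre-graft libraries, with 1 TA library at 0 reads. The TA libraries were mostly, not all, below the EOM libraries. The difference was -2.53 (SE 0.64, adjusted p = 0.0157), or 5.77-fold lower in TA, and its call was lost within Experiment 2 (-2.92, adjusted p = 0.0616), with all libraries (-2.46, adjusted p = 0.160) and with edgeR (-1.77, adjusted p = 0.0532). Mcm3, Mcm4, Mcm5 and Mcm7 had differences of -1.03, -0.57, -1.26 and -1.17 and did not pass the test, and Mcm2 had one of 1.91 (adjusted p = 0.159). Mcm3 was called with the donor as a block (-1.55, adjusted p = 0.0246) and without the TA library of Experiment 2 mouse 3 (-1.37, adjusted p = 0.0414), and Mcm2 without that of mouse 6 (2.46, adjusted p = 0.0483). Summed over the 6 genes the level was 205 to 305 RPM (median 272) in EOM and 102 to 203 RPM (median 166) in TA pre-graft libraries, on the deposited scale, and the ranges nearly met.

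Cdkn1a, the most abundant inhibitor, was 9.23 to 10.15 log2 RPM (median 9.59) in EOM and 9.96 to 10.90 (median 10.52) in TA pre-graft libraries. Its difference of 0.88 (SE 0.16, adjusted p = 0.00140) passed the test but not the limit of 1 on size, which it passed after centring (1.12, adjusted p = 0.000323). Cdkn1b and Cdkn1c, the other CIP/KIP inhibitors, had differences of 0.06 and 0.01 with SEs of 0.19 and 0.25. Ccnd3 had medians of 30.8 RPM per kb in EOM and 21.6 in TA pre-graft libraries, against 5.74 and 32.7 for Ccnd1, and had a log2 difference of -0.49 (adjusted p = 0.112). Of the D-type cyclins only Ccnd1 was thus called between the muscles.

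**Figure D3:**
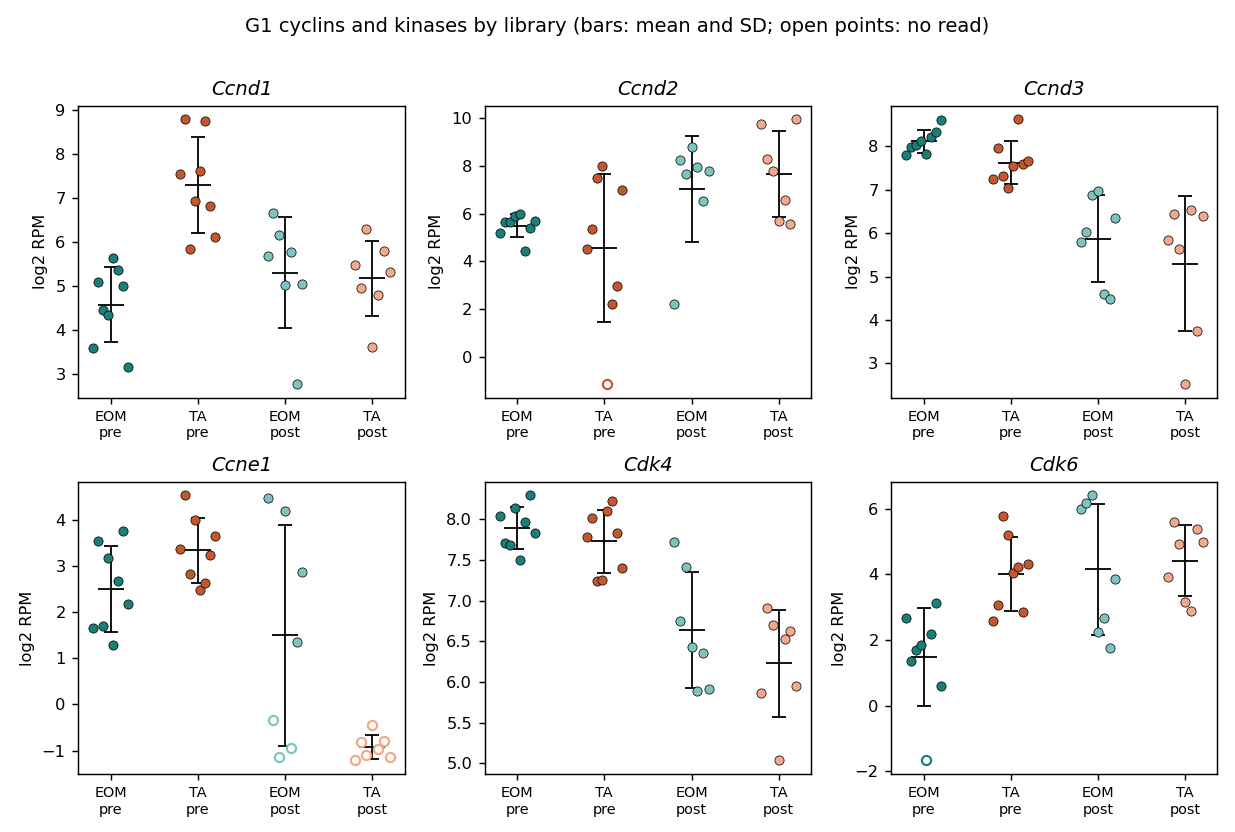
Levels of the D-type cyclins, Ccne1, Cdk4 and Cdk6 in log2 RPM (vertical axes, each with its own range) for the 4 groups (horizontal axes), with 1 point a library, bars for the mean and SD, and open points for libraries with no read. The TA pre-graft libraries lie above all EOM pre-graft libraries for Ccnd1, and all 7 TA post-graft libraries have no read of Ccne1.

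Ccnd2 (chr6:127125779-127151048), the third D-type cyclin, is given here beside the makeup of the libraries. Its level was 4.45 to 5.98 log2 RPM (median 5.66) in EOM pre-graft but -1.14 to 8.01 (median 4.94) in TA pre-graft libraries. The summed level of 9 endothelial marker genes was 1456 to 2489 RPM in 3 TA pre-graft libraries, those of Experiment 2 mice 1, 2 and 6, where Ccnd2 was at 127 to 257 RPM. It was 18.1 to 418 RPM in the other 5, where Ccnd2 was at 0 to 41.4 RPM. Ccnd2 was thus high in the TA libraries with the most endothelial signal.

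Cdk6 was 19.9 to 55.3 RPM in the same 3 libraries and 5.95 to 18.6 RPM in the other 5, while Cdkn1a was 1298 to 1792 and 995 to 1915 RPM. Without these 3 libraries, a choice made after the data were seen, Ccnd2 was lower in TA than in EOM (-2.71, adjusted p = 0.0415, against -0.95 and 0.540 with them). Cdk6 was no longer called (1.88, adjusted p = 0.167), and Ccnd1, Cdkn2c and Mcm6 were called at 3.32, 1.48 and -1.33 (adjusted p = 5.11e-05, 0.0230 and 0.0371). The 3 libraries held the highest Ccnd2 and Cdk6 of the TA pre-graft libraries. Leaving them out thus lowers both genes in TA by construction, and these fits cannot test either gene. The choice was made in TA only, and an EOM pre-graft library with 837 RPM of the endothelial markers was kept. Myog, which marks differentiating muscle cells, had no read in the 3 libraries and 15.3 to 73.1 RPM in the other 5. The part of endothelial RNA in these results was not tested, and in such bulk libraries fewer cells of a type and less RNA per cell cannot be told apart.

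TA MuSCs changed on grafting at 9 of 36 genes tested, with 8 lower and 1 higher. Lower were the G1 cyclins Ccnd1, Ccnd3 and Ccne1, the kinase Cdk4, the licensing genes Mcm2, Mcm4 and Mcm7, and Rbl2. Ccnd2 was higher. Over all 13076 genes 30.9% were called lower and 3.79% higher (34.7% in all), and the median change over all genes was -1.09 on the log2 scale, against -0.52 over the 36 genes. Centring each library on its median reduced that shift to a median of -0.19 over all genes. After centring 3 were lower (Ccnd1, Ccnd3 and Ccne1) and 4 higher (Ccnd2, Pcna, Cdkn1a and Cdkn1c), beside 5.68% and 7.67% of all genes. On recovered reads edgeR called 3 higher and 3 lower, and DESeq2 5 and 3. Of all 13076 genes edgeR called 782 higher and 402 lower, and DESeq2 1155 and 514.

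Ccne1 (cyclin E1, chr7:38097984-38107534), which drives Cdk2 at the start of S phase, had 4 to 38 reads in the 8 TA pre-graft libraries and none in any of the 7 TA post-graft libraries. Set against a floor of 3 reads in each post-graft library it was at least 6.32-fold lower on the deposited scale, for counting error only. That bound includes the shift of all genes, with a median change of -1.09, and leaves out the sampling of RNA from few cells. The limma fit gave an adjusted p of 0.000301. In EOM grafts 4 of 7 libraries had reads of Ccne1, with at most 47. Its relative Ccne2 (cyclin E2), which had reads in 6 of 7 TA grafts, had a change of 0.11 (adjusted p = 0.918).

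Ccnd1 fell from a median of 7.23 to 5.32 log2 RPM (3.62 to 6.29 in TA grafts), a change of -2.12 (SE 0.48, adjusted p = 0.00343), and of -1.22 after centring (adjusted p = 0.0320). Only the highest TA graft lay within the range of the TA pre-graft libraries, which began at 5.85. Ccnd3 (chr17:47505051-47599683), the D-type cyclin tied to muscle differentiation, was 7.05 to 8.62 (median 7.57) before and 2.52 to 6.53 (median 5.84) after grafting, with no overlap, as for 5.19% of all genes. Its change was -2.33 (SE 0.51, adjusted p = 0.00280), and -1.43 after centring (adjusted p = 0.0153).

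Cdk4 was 7.24 to 8.22 log2 RPM (median 7.80) before and 5.04 to 6.91 (median 6.53) after grafting of TA MuSCs, again with no overlap. Its change was -1.50 (SE 0.35, adjusted p = 0.00399), and -0.60 after centring (adjusted p = 0.0911). Rbl2 changed by -1.53 (SE 0.58, adjusted p = 0.0414), and by -1.48 with the donor as a block (adjusted p = 0.0699), and its call was lost on leaving out any of 10 of the 15 libraries.

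Ccnd2 was 5.58 to 9.94 log2 RPM (median 7.76) in TA grafts, a change of 3.10 (SE 1.00, adjusted p = 0.0213). Its call was lost within Experiment 2 (2.88, adjusted p = 0.0763) and with edgeR (2.60, 0.0756). The endothelial markers were at 1335 to 7091 RPM in the 7 TA grafts, with all 9 genes detected in each and 8 of the 9 called higher than before grafting, and Ccnd2 was at 47.8 RPM in a graft with 1449 RPM of them and at 986 RPM in the graft with 7091. Against the 5 TA pre-graft libraries with the least endothelial signal, a choice made after the data were seen, the change of Ccnd2 was 4.87 (adjusted p = 0.000972). The 3 libraries left out had the highest Ccnd2 before grafting, and all 7 grafts were kept. A larger change thus follows from the choice and is not a separate test. The part of endothelial RNA in the change of Ccnd2 was not tested.

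Of the licensing genes Mcm2 changed by -2.78, Mcm4 by -2.62 and Mcm7 by -2.46 (SEs 0.86, 0.76 and 0.74, adjusted p = 0.0179, 0.0127 and 0.0153). Mcm2 had reads in 7 of 8 TA pre-graft libraries (median 12.5 reads) and in 1 of 7 TA grafts. Mcm7 (chr5:138164583-138172422) was 2.45 to 6.93 log2 RPM (median 6.11) before and 1.94 to 6.06 (median 2.64) after grafting, with 6 of 7 grafts at 8 to 19 reads. Mcm3, Mcm5 and Mcm6 had changes of -0.29, -1.70 and -0.08 and did not pass the test. After centring none of the 6 was called (-1.88, -1.72 and -1.56 for Mcm2, Mcm4 and Mcm7, adjusted p = 0.161, 0.0894 and 0.151). Relative to the median change of all genes Mcm2, Mcm4 and Mcm7 were at -1.69, -1.53 and -1.37.

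None of the inhibitors was called in TA grafts on the deposited scale. Cdkn2c fell short of the test with a change of -2.15 (SE 0.86, adjusted p = 0.0531). It was called on log2(RPM + 1) (-1.83, adjusted p = 0.0487), with experiment as a covariate (-2.28, adjusted p = 0.0495), with all libraries (-2.56, adjusted p = 0.00773) and without the TA graft of Experiment 2 mouse 2, 5 or 6 (adjusted p = 0.0323, 0.0411 and 0.0277), but had -1.26 after centring (adjusted p = 0.369) and -0.16 with edgeR (adjusted p = 0.932). Cdkn1a was 9.01 to 12.01 log2 RPM (median 10.71) in TA grafts, with a change of 0.29 (SE 0.38, adjusted p = 0.550), and of 1.18 after centring (adjusted p = 0.00195). Cdkn1c had a change of 0.14 (SE 0.36) and of 1.04 after centring (adjusted p = 0.0478), and Cdkn1b one of -0.89 (adjusted p = 0.0922). Cdkn2b was called higher in 1 of 12 other settings, over which its change was 0.64 to 2.92 and the adjusted p 0.0353 to 0.628. Rrm2, of nucleotide supply, was called lower in TA grafts with all libraries (-1.96, adjusted p = 0.0455) and without the graft of Experiment 2 mouse 2 or the pre-graft library of mouse 5 (-2.99 and -2.55, adjusted p = 0.00703 and 0.0480). The fits with all libraries included a TA pre-graft library where a gene with no read stood at 4.40 log2 RPM. The 2 TA grafts with the highest Cdkn1a, 3159 and 4117 RPM, also had 6651 and 7091 RPM of the endothelial markers. The TA graft of Experiment 2 mouse 1, with 5629 RPM of these markers, had 1532 RPM of Cdkn1a. The part of endothelial RNA in the level of Cdkn1a was not tested.

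EOM MuSCs changed on grafting at 12 of 32 genes tested, with 11 lower and 1 higher. Lower were 5 of the 6 licensing genes (Mcm3 to Mcm7), the cyclins Ccnd3 and Ccne2, the kinase Cdk4, the inhibitors Cdkn1b and Cdkn2c, and Rbl2, while Cdk6 was higher. Over all 13094 genes 55.8% were called lower and 3.51% higher (59.3% in all), and the median change was -1.48, against -0.83 over the 32 genes. After centring 2 were lower (Mcm5 and Mcm7) and 6 higher (Ccnd1, Ccnd2, Cdk6, Cdkn1a, Cdkn1c and Rb1), beside 4.84% and 6.65% of all genes. On recovered reads edgeR called 7 higher and none lower, and so did DESeq2. Of all 13094 genes edgeR called 907 higher and 380 lower, and DESeq2 1189 and 496. Most lower calls in EOM grafts were thus lost under other scalings, while among the 12 genes only Ccne2 and Cdkn1b changed sign in any setting tried.

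Mcm5 (chr8:75109528-75128439), shown above, was 1.70 to 5.40 log2 RPM (median 4.03) in EOM pre-graft libraries, and had no read in 6 of the 7 EOM grafts. The seventh, Experiment 1 mouse 4, had 67 reads. The change was -3.87 (SE 0.86, adjusted p = 0.00172), and -2.62 after centring (adjusted p = 0.0316). Mcm7 was 5.94 to 7.45 (median 6.64) before and -1.14 to 5.51 (median 3.10) after, with no overlap, as for 11.3% of all genes, and changed by -3.54 (SE 0.70, adjusted p = 0.000855), and -2.29 after centring (adjusted p = 0.0445).

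Mcm3, Mcm4 and Mcm6 changed by -2.89, -2.83 and -1.92 (adjusted p = 0.00435, 0.00297 and 0.0247), and none of these kept its call after centring, nor Mcm6 with the donor as a block (-2.03, adjusted p = 0.0699). Summed over the 6 genes the level was 205 to 305 RPM in EOM pre-graft libraries and 10.6 to 156 RPM in EOM grafts. On the recovered reads neither edgeR nor DESeq2 called any of the 6 (DESeq2 gave no adjusted p for Mcm5), with -1.67 for Mcm5 and -1.48 for Mcm7 in edgeR (adjusted p = 0.390 and 0.139). The calls of the licensing genes thus depended on the model and its scaling.

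Cdk6 was -1.67 to 3.14 log2 RPM (median 1.77) in EOM pre-graft libraries and 1.77 to 6.41 (median 3.88) in EOM grafts, a change of 2.68 (SE 0.87, adjusted p = 0.0137) and of 3.93 after centring (adjusted p = 0.00263). Of the 7 grafts 3 were at 63.1 to 84.8 RPM and 4 at 3.42 to 14.7 RPM, and the endothelial level of the 3 high grafts ranged from 217 to 5980 RPM. Within Experiment 2 the change was 2.64 (adjusted p = 0.0505). Ccne2 (cyclin E2) was 0.81 to 3.58 log2 RPM before and -1.24 to 3.44 after grafting and changed by -1.82 (SE 0.75, adjusted p = 0.0397), a call lost after centring (-0.57) and on leaving out any of 10 of the 15 libraries. Cdk2, its kinase partner, was called lower only without the EOM graft of Experiment 2 mouse 1 or 3 or of Experiment 1 mouse 4 (-1.79, -1.58 and -1.59, adjusted p = 0.0128, 0.0393 and 0.0284).

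Cdk4 was 7.50 to 8.29 log2 RPM (median 7.90) before and 5.89 to 7.72 (median 6.43) after grafting, a change of -1.25 (SE 0.30, adjusted p = 0.00268) that was no longer called after centring (adjusted p = 0.990). Ccnd3 was 7.80 to 8.61 before and 4.47 to 6.97 after, with no overlap, and changed by -2.24 (SE 0.36, adjusted p = 0.000238), and by -0.99 after centring (adjusted p = 0.0720). Rbl2 (chr8:91070057-91123844) was 4.84 to 5.94 before and -0.56 to 5.88 after, with 1 to 125 reads, and changed by -2.65 (SE 0.73, adjusted p = 0.00598), and by -1.40 after centring (adjusted p = 0.166).

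The inhibitors Cdkn1b and Cdkn2c changed by -1.11 and -2.55 in EOM MuSCs (adjusted p = 0.0221 and 0.0140), by -0.92 and -2.36 with the donor as a block (adjusted p = 0.114 and 0.0749), and by 0.14 and -1.30 after centring (adjusted p = 0.752 and 0.273). Without the EOM graft of Experiment 2 mouse 3 the change of Cdkn1b was -0.84 (adjusted p = 0.0476), under the limit on size. Cdkn2c was at 0 in 2 EOM grafts and at 1 read in 2 more. Cdkn1a was 9.69 to 10.96 log2 RPM (median 10.60) in EOM grafts against 9.23 to 10.15 before, a change of 0.81 (SE 0.25, adjusted p = 0.0112) that was under the limit on size, and of 2.06 after centring (adjusted p = 0.000252). Cdkn1c changed by 0.50 (SE 0.40), and by 1.75 after centring (adjusted p = 0.00165), with 913 RPM in Experiment 1 mouse 4 and 120 to 252 RPM in the other 6 grafts.

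That graft stood apart in more than 1 gene. It held the most cells of the grafts used here, with 217 RPM of the endothelial markers against 976 to 5980 RPM in the other 6, and was the only graft of either muscle with reads of Myog. Its Ccnd2 was 4.71 RPM, against 91.5 to 437 RPM in the others, and its 6 Mcm genes summed to 156 RPM, against 10.6 to 67.3 RPM. The change of Ccnd2 in EOM MuSCs was 1.51 (SE 0.67, adjusted p = 0.0553), and 2.32 within Experiment 2 (adjusted p = 0.00119), which leaves that graft out. Endothelial markers rose in EOM grafts at 8 of 9 genes, and their part in the change of Ccnd2 was not tested.

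**Figure D4:**
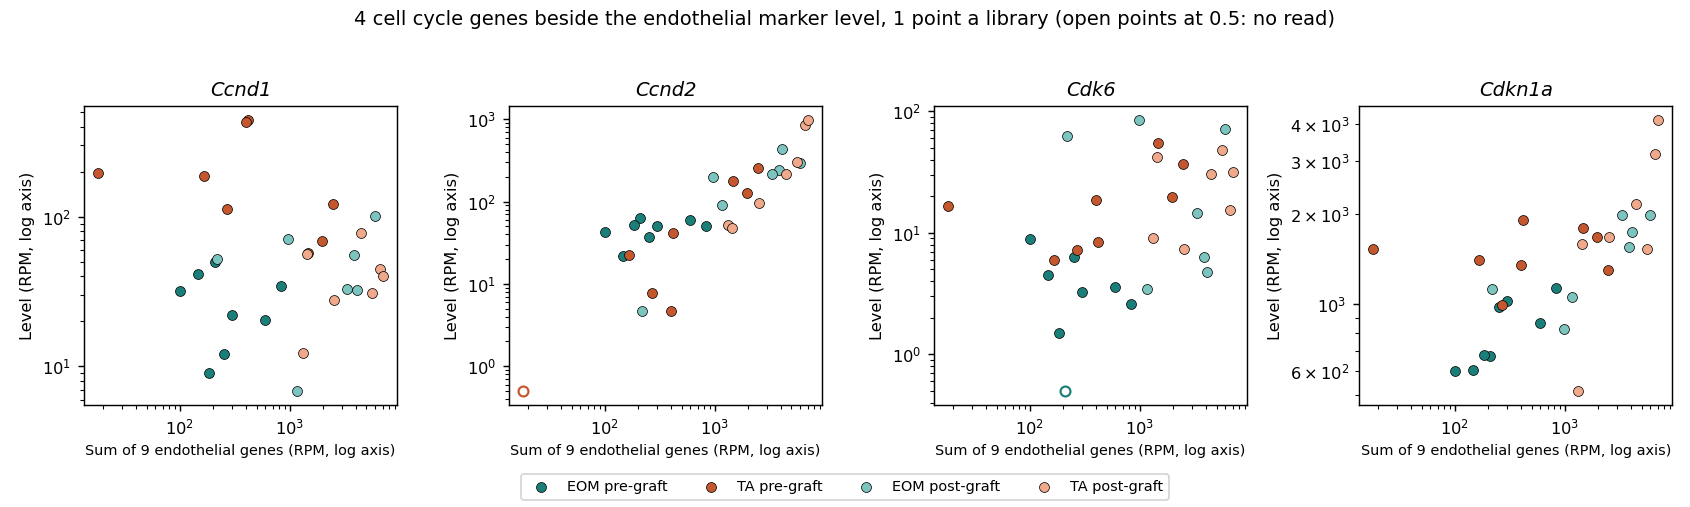
Levels of Ccnd1, Ccnd2, Cdk6 and Cdkn1a (vertical log axes, RPM) against the summed level of 9 endothelial marker genes (horizontal log axes, RPM), with 1 point a library coloured by group and open points at 0.5 for no read. The 3 TA pre-graft libraries at 1456 to 2489 RPM of endothelial markers have 127 to 257 RPM of Ccnd2, and the other 5 have 0 to 41.4 RPM.

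**Figure D5:**
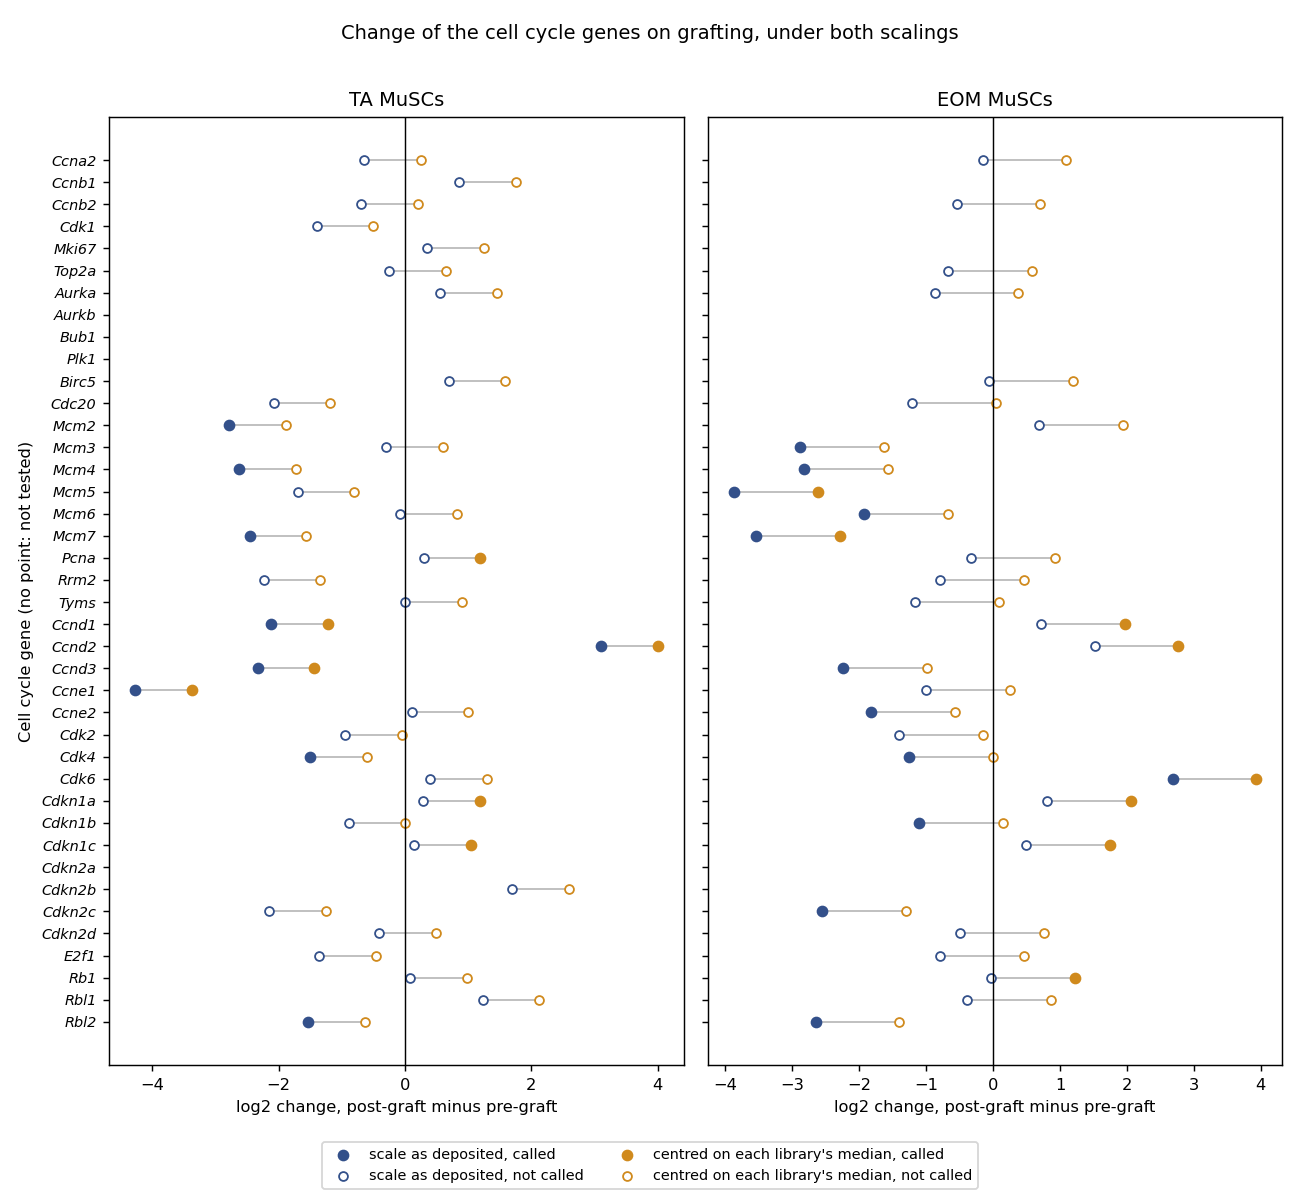
Change on grafting of each gene (vertical axis) in log2 units (horizontal axis), for TA MuSCs at left and EOM MuSCs at right, as deposited (blue) and after centring each library on its median (orange), with filled points for called genes and no point where a gene was not tested. Centring moves all points to the right, so that 8 lower calls in TA become 3 and 11 in EOM become 2, while Ccnd2 in TA and Cdk6 in EOM are called higher under both.

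After grafting, none of 34 genes was called between TA and EOM MuSCs, which share the host muscle. No gene of the 12377 tested was called in either direction (0%), with 3.65% at an unadjusted p under 0.05, among them 2 of the 34 genes, Ccne1 (-2.42, p = 0.0115) and Cdkn2b (2.18, p = 0.0498). Neither edgeR nor DESeq2 called any of the 34. The difference of Ccnd1 was -0.13 (SE 0.64) and that of Cdkn1a 0.36 (SE 0.48). SEs of the 34 genes were wide after grafting, so that small differences were not detectable.

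Whether grafting changed a gene differently in the 2 muscles was tested as an interaction, the change of EOM minus that of TA. None of 37 genes was called with limma, beside 0.0554% of all 14428 genes called higher and 0.152% lower (0.208% in all). At an unadjusted p under 0.05 were 5 of the 37, Ccnd1, Ccne1, Mcm2, Mcm3 and Cdk6, and 7.22% of all genes. In EOM grafts Ccnd1 was not called with limma on the deposited scale and all passing libraries, but was called higher in 4 of 11 other settings. These were centring (1.97, adjusted p = 0.0137), scaling without mitochondrial genes (1.79, 0.0180), edgeR (1.89, 0.00847) and DESeq2 (2.01, 0.000186). Ccnd1, which fell in TA and not in EOM, had an interaction of 2.84 (SE 0.74, adjusted p = 0.117), and of 3.25 after centring (adjusted p = 0.0146), where 0.097% of all genes were higher and 0.0693% lower. It was also called with edgeR (3.38, adjusted p = 0.0235), without the mitochondrial genes in the scaling (3.12, adjusted p = 0.0124), in libraries with under 50% mitochondrial reads (3.16, adjusted p = 0.0270), and with DESeq2 (3.43, adjusted p = 2.89e-05), but not within Experiment 2 (2.42, adjusted p = 0.612), with the donor block (2.76, adjusted p = 0.260) and not without the 3 TA pre-graft libraries high in endothelial markers (3.44, adjusted p = 0.0514). Without the EOM graft of Experiment 2 mouse 5, which had 8 reads of Ccnd1, the interaction was 3.26 (adjusted p = 0.0252) and called. Ccne1 had 3.26 (adjusted p = 0.376, and 0.000845 with DESeq2) and Mcm2 3.46 (adjusted p = 0.521), neither past the test.

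Other cell cycle genes, in lists apart from the 40, were read alongside. Before grafting 1 of 33 other S phase genes tested was called, beside 4.56% of all genes. It was Fen1, the flap endonuclease of lagging strand synthesis, at -2.77 in TA (SE 0.77, adjusted p = 0.0284), and it was not called after centring (-2.53, adjusted p = 0.0534), while edgeR and DESeq2 called none of the 33. None was called with limma of 25 other G2 and M phase genes, 12 genes of the DREAM complex and E2F family, 14 of CDK activation and cyclin turnover, 16 of the p53 pathway and 10 antiproliferative genes. Their median differences were -0.22, -0.36, -0.42, -0.35, -0.18 and 0.41 in that order, against -0.30 over all genes. At an unadjusted p under 0.05 were 1, 3, 3, 4 and 6 genes of the last 5 lists, and edgeR and DESeq2 each called 1 gene in them, of the p53 pathway. Of all 13217 genes edgeR called 247 higher and 191 lower, and DESeq2 324 and 245.

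In TA grafts 1 of 34 other S phase genes was higher and 2 were lower, and 1 of 23 other G2 and M phase genes was higher and 4 were lower, beside 3.79% of all genes higher and 30.9% lower. Cdc6, which loads the Mcm helicase, was higher (2.39, adjusted p = 0.0499, and 3.28 after centring), and Tacc3, a spindle protein, was lower (-3.56, adjusted p = 0.00137, and -2.67 after centring). Lower were also 6 of 12 DREAM and E2F genes, 7 of 14 of CDK activation, 6 of 16 of the p53 pathway and 4 of 10 antiproliferative genes, again beside 30.9% of all genes, and after centring 1, 0, 0 and 3 stayed lower, beside 5.68%. The antiproliferative genes that stayed lower were Gas1 (-3.69, adjusted p = 0.000223), Ccng2 (-2.38, adjusted p = 0.000486) and Btg2 (-2.21, adjusted p = 0.000687), all known from growth-arrested cells.

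In EOM grafts none of 35 other S phase genes was higher and 11 were lower, and of 28 other G2 and M phase genes 1 was higher and 13 were lower, beside 3.51% of all genes higher and 55.8% lower. After centring the S phase list had 2 higher and 2 lower (Rfc4 and Rpa2, of the clamp loader and the single-strand binding complex), and the G2 and M list 1 higher and none lower. That gene was Ube2c, the ubiquitin enzyme of the anaphase-promoting complex (3.75, adjusted p = 0.00119, and 5.00 after centring). Lower were 8 of 12 DREAM and E2F genes, 10 of 14 of CDK activation, 9 of 16 of the p53 pathway and 5 of 10 antiproliferative genes, again beside 55.8% of all genes, and after centring (4.84% of all genes lower) Tfdp1, Wee1, Gadd45a and Gas1 stayed lower, 1 in each list. In both muscles, then, Gas1 was lower after grafting under both scalings.

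Markers of other cells moved with the grafts beside these results. The 12 muscle stem cell markers were at 13333 to 16898 RPM in EOM and 11500 to 19639 RPM in TA pre-graft libraries, and at 1403 to 12262 and 333 to 9129 RPM in the post-graft libraries, with 12 of 12 called lower in EOM grafts beside 55.8% of all genes and 10 of 12 in TA grafts beside 30.9%. After centring 4 and 9 of the 12 were lower, and Cd34 and Itga7 were no longer called in EOM grafts (-0.62 for either, adjusted p = 0.172 and 0.103). Summed Schwann cell markers were 397 to 4614 RPM in EOM pre-graft, 180 to 1266 in TA pre-graft, 169 to 688 in EOM post-graft and 330 to 2704 in TA post-graft libraries. Macrophage markers were at or below 102.6 RPM in every pre-graft library but the EOM library of Experiment 2 mouse 2, with 2174 RPM, and reached 742 RPM in EOM grafts and 73.3 RPM in TA grafts. Fibro-adipogenic markers were at 3357 to 6447 RPM in EOM pre-graft and 3067 to 5656 in TA pre-graft libraries. They were at 1052 to 12626 RPM in EOM and 989 to 6320 RPM in TA post-graft libraries. Erythroid markers had medians of 0.941 RPM in EOM pre-graft, 0.820 in TA pre-graft, 2342 in EOM post-graft and 5.05 in TA post-graft libraries. Their highest levels were 2323, 4886, 2976 and 939 RPM in that order. Lymphocyte markers were at or below 59.8 RPM throughout, and the part of any of these cells in the changes of the 40 genes was not tested.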

How the data were processed

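RNA-seq libraries were made from sorted MuSCs by the G&T method and sequenced as paired ends. By the submitters' processing notes and the study's methods the authors trimmed reads with Trim Galore 0.4.4, aligned them to GRCm38 with HISAT2 2.1.0, and deposited log2 RPM values per gene from SeqMonk, in which a gene with no read stands at the value of 0.9 of a read. Reads on the sense strand made up about 50% of each library, so overlapping and antisense genes cannot be told apart. Whole reads were recovered from the deposited log2 values (99.9886% within 0.01 of a whole number), and RPM levels are these reads times the value of 1 read. The scaling total is not the reads in genes, as the un-logged values of a library have differing sums. These were 1.43e+06 to 1.53e+06 in EOM pre-graft and 1.27e+06 to 1.51e+06 in TA pre-graft libraries. In EOM and TA post-graft libraries they were 1.08e+06 to 1.49e+06 and 1.12e+06 to 1.43e+06. Read counts and percentages per library, as the authors deposited them from SeqMonk, were used for depth and quality only. In all, 66 duplicate rows of 25965 were dropped, the 10 RNA libraries that failed the study's criteria entered only an alternative, and the 40 bisulfite libraries were not used here. In the failing EOM pre-graft library of Experiment 1 mouse 1, with 302 recovered reads, a gene with no read stood at 10.7 log2 RPM. In the failing TA pre-graft library of Experiment 1 mouse 5 it stood at 4.40. Such values raise unread genes before grafting in the fits with all libraries. Precision follows from 963432 to 4169357 recovered reads a library. PCR duplicates carry no molecular identifiers, so limits cover counting error only.

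Genes whose log2 RPM exceeded 1 in 4 or more libraries of a comparison were fitted with limma 3.58.1 (R 4.3.3), moderated with a trend, and adjusted over all of them by Benjamini-Hochberg. A call needed an adjusted p under 0.05 and a log2 change beyond 1 in size. Changes are on the deposited log2 scale and understate those of low genes. Alternatives were log2(RPM + 1), no filter, the donor as block, experiment as covariate or Experiment 2 alone, all libraries, scaling without mitochondrial genes, centring, edgeR 4.0.16 (quasi-likelihood) and DESeq2 1.42.0 on recovered reads, and leaving out each library. Libraries with under 50% mitochondrial reads, and TA pre-graft libraries with under 750 RPM of endothelial markers, were chosen after the data were seen. On simulated data the fit recovered 81.31 to 86.24% of genes changed by 2 log2 units. Only genes well read in every library were changed, and all genes and groups had the same dispersion. Neither the wider spread of the grafts nor the shift of most genes on grafting was simulated. These shares thus do not give the recovery in the graft comparisons. Recovery of the 40 genes themselves, many of them at few reads, was not tested. Same-numbered samples of an experiment came from the same donor mouse, and their deviations correlated at -0.22 to 0.18. All 40 genes are accounted for; described with their levels are those called in a comparison or with reads in every library of a group, and of other lists at most 4 called genes of lowest adjusted p. The genes were set by symbol, with no threshold on a measured value, but they and the lists were chosen with earlier results of these data known. Promoters were read from RefSeq (GRCm38.p6). The samples were single libraries per donor and muscle.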

Additional observations from a re-analysis of the deposited data

Results flagged for a closer look

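Of 84 sets of values, each a gene or a summed list in a group of 7 or 8 libraries, 10 had a highest or lowest library far from the others by Dixon's criterion, which chance meets in about 1 of 20 sets. None is weighed here.

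In EOM pre-graft libraries Mcm3 was lowest at 3.86 log2 RPM in Experiment 1 mouse 5, with the others at 4.90 to 5.65. E2f1 was highest at 5.47 log2 RPM in Experiment 2 mouse 2, with 127 reads against 2 to 5 in the others, and this library also had 2174 RPM of macrophage markers. The 12 mitotic genes summed to 112.1 RPM in Experiment 2 mouse 4, against 13.99 to 42.08 RPM. In TA pre-graft libraries Cdkn1b was lowest at 5.50 log2 RPM in Experiment 2 mouse 2, with the others at 6.25 to 6.86.

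In EOM grafts Ccnd1 was lowest at 2.77 log2 RPM in Experiment 2 mouse 5, with 8 reads against 48 to 141. The graft of Experiment 1 mouse 4 had the lowest Ccnd2 at 2.24 log2 RPM (others 6.52 to 8.77), the highest Cdkn1c at 9.84 log2 RPM (others 6.91 to 7.97) and the highest Mcm sum at 155.9 RPM (others 10.6 to 67.3). In TA grafts Mcm7 was highest at 6.06 log2 RPM in Experiment 2 mouse 5 with the others at 1.94 to 3.26, and Cdkn2d was lowest at 2.88 log2 RPM in Experiment 2 mouse 3, with 9 reads against 53 to 174.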

How the results depend on the processing

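Over the genes called in a comparison, Cdkn1a before grafting and the interaction of Ccnd1, 589 alternative values kept their direction and their side of the threshold, 127 lost a call, 11 gained a call and 5 reversed. The number of genes called moved by over 1.5 times in these cases: 1 with all libraries against 4 between the muscles before grafting, 5 in Experiment 2 alone against 9 for TA grafting, and 7 with edgeR and 7 with DESeq2 against 12 for EOM grafting, all 7 of them higher. Over all genes tested in these cases, 30, 193, 907 and 1189 were called higher and 176, 1761, 380 and 496 lower, in the same order. For the interaction, with none called, 1 was called with scaling without mitochondrial genes, 1 after centring, 1 with edgeR, 2 with DESeq2 and 1 in libraries with under 50% mitochondrial reads. Over all genes tested 10, 14, 1, 67 and 15 were called higher and 14, 10, 1, 30 and 25 lower, in that order. Genes with a read in every library numbered 0 with all 40 libraries, which include a library of 302 recovered reads, against 11. Reversed were Ccne2 in EOM grafts (0.18 with edgeR, 0.31 with DESeq2, against -1.82) and Cdkn1b (0.14 after centring, 0.080 with edgeR, 0.17 with DESeq2, against -1.11), and the cause was not tested. Leaving out 1 library gave 3 to 5 genes between the muscles before grafting, 8 to 10 for TA grafting, 11 to 13 for EOM grafting, 0 to 0 after grafting and 0 to 1 for the interaction. With the donor as a replicate block, which pairs samples of the same mouse, 3, 8, 9, 0 and 0 genes were called in the same order. Over all genes tested with this block 269, 484, 315, 0 and 6 were called higher and 438, 3226, 4468, 1 and 10 lower.

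Depth limits the mitotic genes, many of them at 0 reads, where 3 reads were 1.05 to 4.64 RPM, and few cells and high mitochondrial shares limit all graft levels.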
